A study of Mus musculus and synthetic construct with 3 samples.

Results

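The subunits of the mitochondrial respiratory chain were followed in aortic sections of mice with and without an abdominal aortic aneurysm (AAA). Members were all genes whose symbol begins with mt-Nd, mt-Co, mt-Cyt, mt-Atp, Nduf, Sdh, Uqcr, Cox4, Cox5, Cox6, Cox7, Cox8 or Atp5. Symbols ending in -ps were excepted, which left out 1 gene, Ndufb1-ps. The rule gave 110 members of 32285 genes, 13 encoded by mitochondrial DNA and 97 encoded in the nucleus. The choice used symbols only and no measured value.

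RNA was captured with Seq-Scope, in which a frozen section is laid on an array of barcoded oligo-dT clusters of known position, so that each unique molecule (UMI) carries a place in the tissue. The mice were male Apoe-/- animals on a normal diet, 16 weeks old per the labels, and carried a subcutaneous minipump for 4 weeks. The text of the methods gives a younger age. Control mice (3 animals, 10 sections) received saline, and AAA mice (3 animals, 10 sections) were those angiotensin II (AngII) mice that developed an aneurysm, so AngII and an aneurysm cannot be told apart here. Loss of Apoe, which raises plasma lipids, was common to both groups. Suprarenal aortas were embedded in control and AAA pairs and cut at 10 μm. A mouse is named below by its condition and pair number, and the mouse is the replicate. The labels do not place the sections on the array; each was placed from the map that the study printed.

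Oxidative phosphorylation passes electrons from NADH through complex I, or from succinate through complex II, to ubiquinone, then through complex III and cytochrome c to complex IV, where oxygen is reduced. Complexes I, III and IV pump protons, and complex V (ATP synthase) uses the gradient to make ATP. Mitochondrial DNA encodes core subunits of complexes I, III, IV and V, and all other subunits, including the whole of complex II, come from nuclear genes. Contractile smooth muscle, the main cell of the normal media, uses both glycolysis and respiration, and brown fat around the thoracic and upper abdominal aorta is among the tissues richest in mitochondria.

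The sections held 141927 to 201349 exonic UMIs per control mouse and 498351 to 1075379 per AAA mouse, and control sections were smaller, so values of control mice are the less precise. A section here is a band of the array from the start to the end of the printed outline, over the full width of the lane. Array beside the tissue is therefore included. The strips between sections (8 gaps with no section) held 12507 to 19677 UMIs per mm2. Control sections held 40208 to 49818 and AAA sections 57597 to 85524 UMIs per mm2 of band, not of tissue. Free RNA is thus part of every section value, and of control values in particular. Liver transcripts lay on the whole array, with Alb at 7177 to 9399 CPM (counts per total of 1000000 UMIs) in the 6 mice and 8687 in the gaps. The marker lists moved between conditions as well. Contractile genes took 1.90% to 2.53% of UMIs in control and 1.40% to 1.63% in AAA mice, and macrophage genes took 0.244% to 0.293% and 0.451% to 0.621%. All 14 contractile and all 13 macrophage markers were detected. In sections taken whole, fewer cells of a type and less RNA per cell cannot be told apart.

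Some neighbouring mitochondrial genes share bases, which bears on how their counts can be read. The 3′ end of mt-Atp8, a small ATP synthase subunit, runs over the start of mt-Atp6 by 43 bases, and that of mt-Nd4l, a complex I subunit, over the start of mt-Nd4 by 7 bases. Each pair is known to be carried on 1 messenger RNA, whose poly(A) tail follows the second gene. The ends of the upstream genes are shown on the plus strand of GRCm38 (GENCODE vM21), with the shared bases in capitals.
mt-Atp8, chrM:7910-7969: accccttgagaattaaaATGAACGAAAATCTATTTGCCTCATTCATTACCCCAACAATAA
mt-Nd4l, chrM:10144-10173: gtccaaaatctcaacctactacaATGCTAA
The overlap takes 21.1% of the 204 bases of mt-Atp8 and 2.36% of the 297 bases of mt-Nd4l. mt-Atp6 (chrM:7927-8607) and mt-Co3 (chrM:8607-9390) share 1 base, and a further overlap is between strands. mt-Nd6 (chrM:13552-14070) is the one member on the minus strand of mitochondrial DNA, and its end meets that of mt-Nd5 (chrM:11742-13565). Whether counting used strand is not given in the sources used here.

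The mitochondrially encoded genes took a smaller share of the RNA in aneurysmal sections. Of all exonic UMIs they made up 10.7%, 10.3% and 10.8% in control mice 1, 2 and 3, and 6.68%, 7.37% and 6.50% in AAA mice 1, 2 and 3. The control mean was 10.6% ± 0.268 and the AAA mean 6.85% ± 0.457 (SD, n = 3 and 3). Every control mouse lay above every AAA mouse, and the difference of -3.75 percentage points had p = 0.1 (exact two-sided permutation test), the smallest p that 3 mice against 3 allow. The single sections showed the same split, with 8.75% to 12.6% in the 10 control sections and 6.21% to 7.70% in the 10 AAA sections, without overlap. The gaps, at 7.30% to 8.88%, were above 9 of the 10 AAA sections and below 9 of the 10 control sections.

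The nuclear encoded genes differed far less. Their part of the UMIs was 2.50%, 2.26% and 2.30% in mice given saline, against 2.10%, 2.10% and 2.15% with AAA, and the means were 2.35% ± 0.129 and 2.12% ± 0.0284 (SD, n = 3 and 3). The mice did not overlap (difference -0.237 percentage points, exact permutation test, p = 0.1), but all control and AAA mice except control 1 lay below the gaps, which had 2.34% to 2.56%. With counts over whole genes, introns included, the AAA minus control difference was -1.62 points for the mitochondrial share. For the nuclear share it was -0.0595 points (exact permutation test, p = 0.4). Exonic UMIs were 37.0% to 43.5% of that larger total. Points with whole genes are therefore not on the scale of exonic points. Without the first section of control 1, which had the highest nuclear share of all sections at 2.92%, the nuclear difference was -0.143 and the mitochondrial difference -3.34 percentage points.

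**Figure D1:**
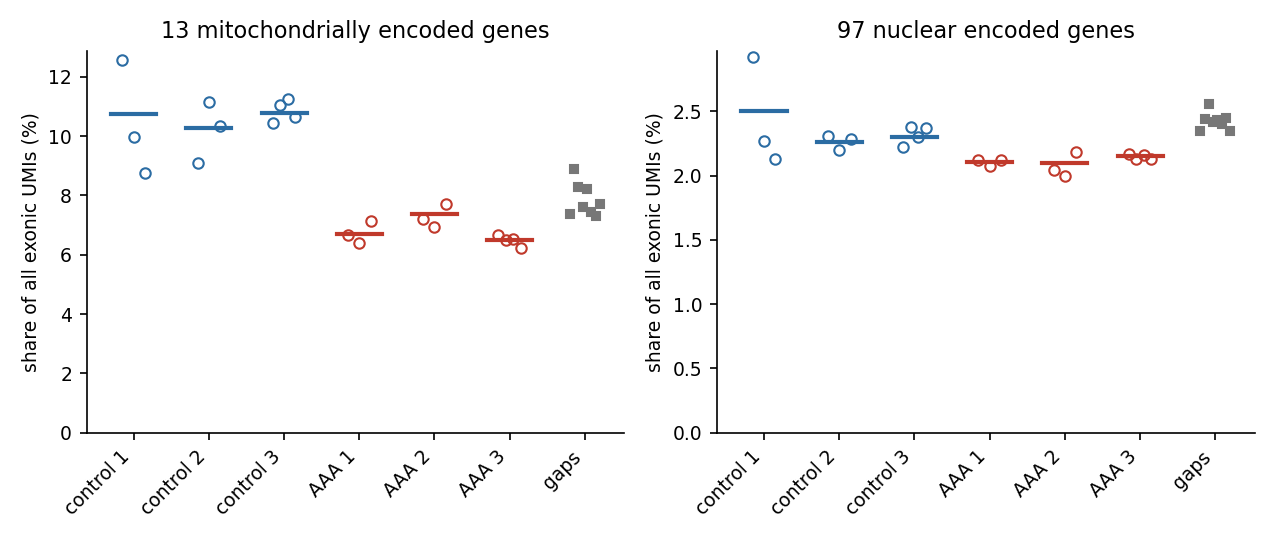
Share of all exonic UMIs (y axis, percent) taken by the 13 mitochondrially encoded genes (left) and the 97 nuclear encoded genes (right), by mouse and in the gaps (x axis). Open circles are sections, bars the pooled value of a mouse, and squares the 8 gaps between sections. In the left panel all 10 control sections lie above all 10 AAA sections, and the gaps lie largely between them.

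The ratio of mitochondrial to nuclear UMIs does not depend on the total. It was 4.29, 4.55 and 4.68 in control mice and 3.17, 3.51 and 3.02 in AAA mice. On the log2 scale the means were 2.17 ± 0.0637 and 1.69 ± 0.110 (SD, n = 3 and 3), and the mice did not overlap (exact permutation test, p = 0.1). With counts over whole genes the log2 difference was -0.47, against -0.48 with exonic counts (exact permutation test, p = 0.1 in both). Over hexagons of 12 μm sides with 75 or more genes, described below, it was -0.20. There the mice overlapped (exact permutation test, p = 0.2). The gaps had ratios of 2.98 to 3.64, around the values of the AAA mice.

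By complex, the mitochondrial genes differed alike. Their complex IV genes took 4.84% ± 0.143 of UMIs in control and 3.14% ± 0.232 in AAA mice, complex I genes 2.66% ± 0.0720 and 1.73% ± 0.119, mt-Cytb of complex III 2.22% ± 0.0935 and 1.46% ± 0.0377, and complex V genes 0.879% ± 0.0325 and 0.524% ± 0.0696 (SD, n = 3 and 3). Each of these had p = 0.1 and 0.125 after Benjamini-Hochberg adjustment over 10 groups of complex and genome (exact permutation test). Among nuclear groups the difference in percentage points was -0.0933 for complex IV, -0.0584 for complex I, -0.0437 for complex III and -0.0263 for complex V, each with no overlap of mice and p = 0.1 (exact permutation test, adjusted p = 0.125). Complex II and the assembly factors overlapped between conditions (exact permutation test, p = 0.2, adjusted p = 0.2).

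Gene by gene, the per-mouse sums went into edgeR's quasi-likelihood test, with Benjamini-Hochberg adjustment over the 6181 genes that passed a filter on low counts, of which 2.62% were called. All 13 mitochondrial genes were tested, and at the 0.05 threshold 10 were lower in AAA mice and 0 higher, against 1.5% of all genes tested that were lower and 1.12% that were higher (93 and 69 genes, or 82 and 114 with library size scaling). Of the 97 nuclear members, 96 had a UMI, 83 were tested, and 5 were lower and 0 higher. No nuclear member was higher at an unadjusted p under 0.05 either, and DESeq2 also called 0. The median log2 fold change, AAA over control, was -0.71 over the mitochondrial genes, -0.22 over the tested nuclear members and -0.02 over all genes tested. In CPM, all control mice lay above all AAA mice for 12 of 13 mitochondrial and 16 of 83 nuclear members, against 6.42% of all genes tested. Over the hexagons with 75 or more genes 3 of 10 tested mitochondrial genes passed, mt-Co1, mt-Nd2 and mt-Nd5. Of all 1234 genes tested over these hexagons, 50 were lower and 27 higher. There the log2 fold changes of mt-Co2, mt-Co3 and mt-Nd3 were -0.38, -0.27 and -0.27, closer to 0 than in the whole sections (edgeR adjusted p = 0.398, 0.596 and 0.529).

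**Figure D2:**
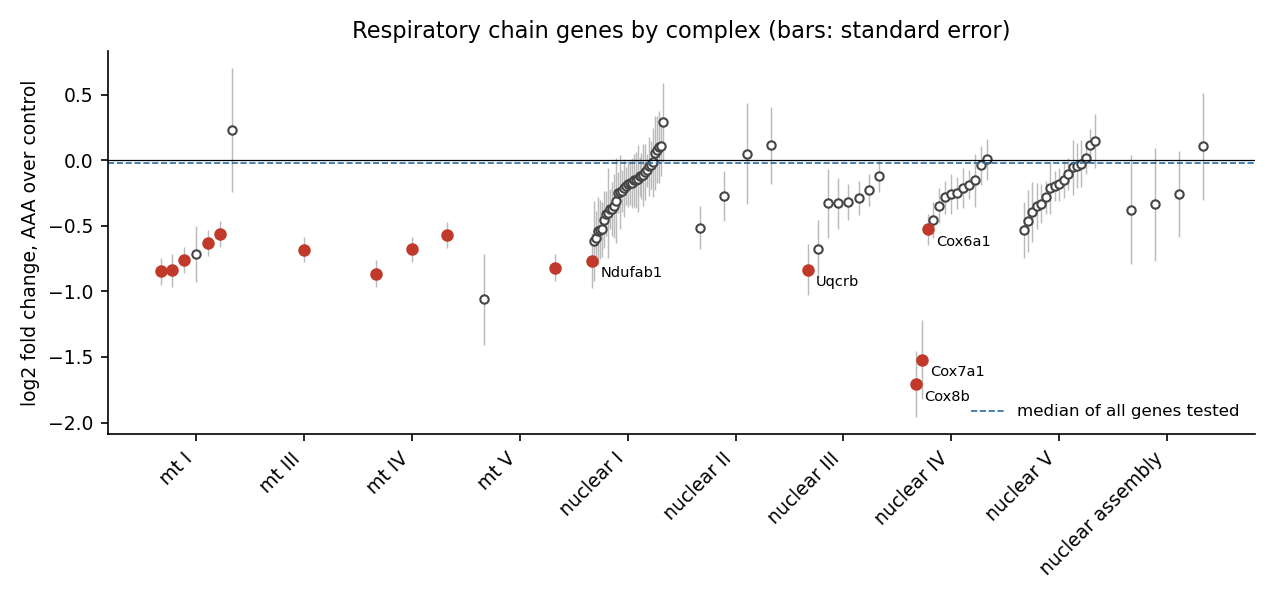
Log2 fold change of each tested member, AAA over control (y axis), by encoding genome and complex (x axis). Filled circles are genes with an adjusted p under 0.05, open circles the others, bars the standard error, and the dashed line the median of all 6181 genes tested. Of the 13 mitochondrial genes, 12 lie below -0.50, and the nuclear genes spread from -1.71 to 0.29.

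In complex IV, mt-Co1, mt-Co2 and mt-Co3 encode the catalytic core. mt-Co1, which carries the oxygen-binding site, had 11836, 11048 and 10911 CPM in control mice and 6290, 7427 and 5816 in AAA mice, a log2 fold change of -0.86 ± 0.101 (SE, edgeR adjusted p = 3.29e-08). mt-Co2, which takes electrons from cytochrome c, had 26974, 26767 and 30077 against 17594, 19745 and 17794 CPM, a log2 fold change of -0.68 ± 0.0958 (SE, edgeR adjusted p = 1.61e-06). mt-Co3 had 9119, 9456 and 9014 against 6522, 6883 and 6139 CPM, a log2 fold change of -0.57 ± 0.0979 (SE, edgeR adjusted p = 6.72e-05). In all 3 the conditions stood apart, with the AAA mice low.

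mt-Cytb, the cytochrome b of complex III that handles ubiquinol, had 22999, 21173 and 22439 CPM in control and 14395, 15002 and 14312 in AAA mice (log2 fold change -0.68 ± 0.0947, SE, edgeR adjusted p = 1.20e-06). mt-Atp6, the proton channel subunit of ATP synthase, had 9025, 8399 and 8771 against 4959, 5994 and 4683 CPM (log2 fold change -0.82 ± 0.102, SE, edgeR adjusted p = 9.79e-08). Both were low in every AAA mouse. mt-Atp8 was seen in 99 UMIs in all, with 6 to 14 per control mouse and 18 to 31 per AAA mouse. Its log2 fold change of -1.06 ± 0.347 (SE) had an edgeR adjusted p of 0.0957 and did not pass.

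The 7 mitochondrial complex I genes encode the membrane arm that pumps protons. In AAA mice mt-Nd2 fell by 0.85, mt-Nd5 by 0.84, mt-Nd4 by 0.76, mt-Nd1 by 0.63 and mt-Nd3 by 0.56 on the log2 scale (edgeR, largest adjusted p = 8.83e-05, for mt-Nd3). In each, the 3 control mice lay above the 3 AAA mice: mt-Nd2, for example, had 6141, 5397 and 5791 CPM in control and 3306, 3716 and 3117 in AAA mice. mt-Nd4l (331 UMIs) had a log2 fold change of -0.71 ± 0.213 (SE) and an edgeR adjusted p of 0.0527. mt-Nd6 (83 UMIs) was the member that did not share the direction, with 11.1, 14.1 and 44.7 CPM in control and 27.9, 36.1 and 30.5 in AAA mice, overlapping groups and a log2 fold change of 0.23 ± 0.472 (SE, edgeR adjusted p = 0.919).

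The genes of mitochondrial DNA were at very unequal levels, although they are transcribed from shared promoters. Per kilobase of gene, over all sections together, mt-Co2 had 29205 CPM, mt-Nd3 17162 and mt-Cytb 13938, while mt-Nd4l had 395, mt-Nd5 320, mt-Atp8 172 and mt-Nd6 56.7. The low genes thus include both upstream partners of the overlaps printed above and both genes of the pair that meets on opposite strands. The order is that of poly(A) capture on this array, and how reads in shared bases were counted was not given in the sources used here.

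Within the mitochondrial set, the make-up changed little. mt-Co2 held 26.4% ± 1.44 of mitochondrial UMIs in control and 26.8% ± 0.514 in AAA mice, and mt-Cytb 21.0% ± 0.426 and 21.3% ± 0.850 (SD, n = 3 and 3), with overlapping mice in both. mt-Co1 took 10.6% ± 0.452 and 9.48% ± 0.571, mt-Atp6 8.24% ± 0.143 and 7.59% ± 0.488 and mt-Nd2 5.45% ± 0.243 and 4.93% ± 0.127, without overlap and with AAA mice lower. mt-Co3, mt-Nd3, mt-Nd1 and mt-Nd6 stood apart the other way, mt-Co3 at 8.69% ± 0.442 in control and 9.52% ± 0.221 in AAA mice and mt-Nd3 at 7.36% ± 0.237 and 8.13% ± 0.340 (SD, n = 3 and 3). For each of these 7 genes p was 0.1, and 0.186 after adjustment over the 13 genes (exact permutation test).

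Nuclear members of complex IV held 3 of the 5 nuclear calls. Cox8b, the heart, muscle and brown fat form of subunit VIII, had 239, 148 and 94.4 CPM in control mice and 50.2, 56.2 and 48.4 in AAA mice, resting on 19 to 43 UMIs per control mouse (log2 fold change -1.71 ± 0.252, SE, edgeR adjusted p = 3.84e-06). Cox7a1, the heart, muscle and brown fat form of subunit VIIa, had 150.3, 98.6 and 54.6 against 40.9, 28.1 and 36.0 CPM (log2 fold change -1.52 ± 0.304, SE, edgeR adjusted p = 0.000711). Both were highest in control 1 and, among controls, lowest in control 3, and the conditions did not overlap.

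The widely expressed partners of these isoforms did not pass the test. Cox8a had 1069, 958 and 1078 CPM in control and 963, 919 and 994 in AAA mice (log2 fold change -0.18 ± 0.113, SE, edgeR adjusted p = 0.563), with overlap. Cox7a2 had 607, 479 and 531 against 437, 465.5 and 443 CPM (log2 fold change -0.35 ± 0.132, SE, edgeR adjusted p = 0.202), with the control mice higher. Cox6a1, the widely expressed form of subunit VIa, was itself lower in AAA, at 935, 761 and 944 against 613, 694 and 635 CPM (log2 fold change -0.53 ± 0.120, SE, edgeR adjusted p = 0.00435), while its heart and muscle partner Cox6a2 had 11 UMIs in all and was not tested. Cox4i2, the form of subunit IV known from lung and low oxygen, had 4 UMIs, all in AAA 1, against 2059 for Cox4i1, whose log2 fold change of -0.28 ± 0.123 (SE) did not pass (edgeR adjusted p = 0.321). Ndufa4l2, a hypoxia-regulated relative of Ndufa4, had 2, 2 and 5 UMIs in control and 36, 12 and 27 in AAA mice, or 11.1, 14.1 and 24.8 against 33.5, 24.1 and 37.4 CPM. These overlapped, and Ndufa4l2 was under the filter on low counts; Ndufa4 had a log2 fold change of -0.59 ± 0.211 (SE, edgeR adjusted p = 0.141).

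**Figure D3:**
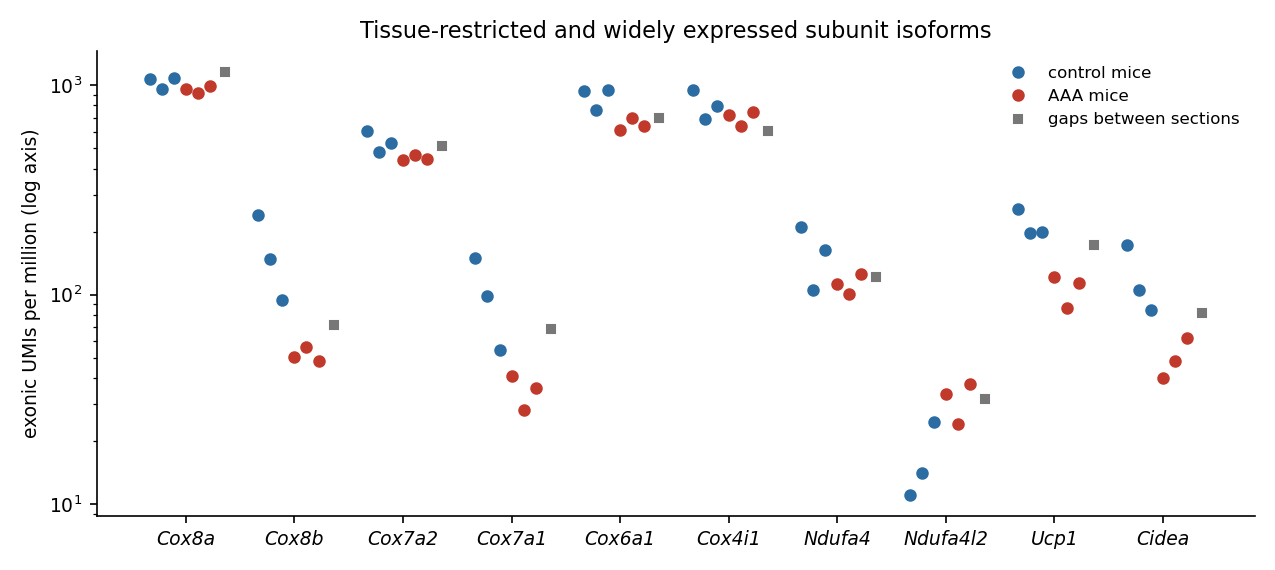
Exonic CPM (y axis, log scale) of paired subunit isoforms and of the brown fat genes Ucp1 and Cidea (x axis). Each circle is a mouse, and the square is the 8 gaps together. Cox8b, Cox7a1, Ucp1 and Cidea are higher in all 3 control mice than in all 3 AAA mice, while Cox8a overlaps.

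The remaining nuclear calls were Uqcrb, a subunit of complex III, and Ndufab1, the mitochondrial acyl carrier protein that is also part of complex I. Uqcrb had 306, 134 and 258 CPM in control and 133, 160.5 and 134 in AAA mice, so control 2 lay among the AAA mice (log2 fold change -0.83 ± 0.193, SE, edgeR adjusted p = 0.00515). Ndufab1 had 184, 197 and 174 against 91.1, 150.5 and 112 CPM, without overlap (log2 fold change -0.77 ± 0.208, SE, edgeR adjusted p = 0.0252). The number of nuclear calls rested on single mice and sections. It was 1 without control 1, 2 without control 3, 3 without AAA 1, 2 without the first section of control 1 and 3 without adipocyte gene hexagons, which are described below. Without the first section of control 1 the calls were Cox8b (-1.25, edgeR adjusted p = 0.00289) and Cox6a1 (-0.46, edgeR adjusted p = 0.0324).

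The 20 nuclear members with the most UMIs were Atp5a1, Cox8a, Atp5g3, Atp5e, Uqcrh, Cox4i1, Cox6a1, Cox6c, Uqcrq, Atp5g2, Atp5l, Ndufa2, Atp5b, Uqcr11, Cox7a2, Cox7c, Uqcr10, Atp5j2, Ndufs6 and Cox5a, with 3002 to 1025 UMIs each. Cox6a1 was the 1 that passed. Atp5a1 and Atp5b, the catalytic head of ATP synthase, had log2 fold changes of -0.19 ± 0.113 and -0.28 ± 0.127 (SE), and Atp5g3 and Atp5g2, which encode its membrane ring, 0.02 ± 0.118 and -0.10 ± 0.124 (SE). Atp5e, the epsilon subunit, had 763, 803 and 844 CPM in control and 922, 903 and 932 in AAA mice, without overlap and with AAA higher (log2 fold change 0.12 ± 0.117, SE, edgeR adjusted p = 0.783). Atp5g1, Atp5g2 and Atp5g3 encode the same mature protein from separate genes, and how reads that fit several copies were counted was not given in the sources used here.

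Across the nuclear complexes the fitted changes leaned down with few calls. Of the tested members, 32 of 37 for complex I, 2 of 4 for complex II, 8 of 8 for complex III, 12 of 13 for complex IV and 14 of 17 for complex V had a negative fold change, with medians of -0.18, -0.11, -0.32, -0.26 and -0.18, against 3223 of 6181 genes and a median of -0.02 over all. Sdha, the flavoprotein through which complex II joins the citric acid cycle, had 334, 275 and 243 against 206, 197 and 220 CPM (log2 fold change -0.51 ± 0.164, SE, edgeR adjusted p = 0.0809). Cox8c was listed with 0 UMIs and was the member without a count.

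The promoters of the 2 muscle and brown fat isoforms are shown beside those of Cox8a and Cox6a1, since Cox8b and Cox7a1 moved together and apart from Cox8a. Each sequence runs 5′ to 3′ on the gene's strand from 250 bases before to 50 bases after the RefSeq start (GRCm38.p6). Capitals mark matches to any of 5 short motifs, searched on both strands. That of NRF1 reads GCGCATGCGC with any base allowed at position 5, that of YY1 reads AAGATGGCG and that of ETS factors reads CCGGAAGT. The SP1 motif was GGGCGG, and the last was TATAAA, the TATA box.
Cox8b, chr7:140900397-140900696, minus strand: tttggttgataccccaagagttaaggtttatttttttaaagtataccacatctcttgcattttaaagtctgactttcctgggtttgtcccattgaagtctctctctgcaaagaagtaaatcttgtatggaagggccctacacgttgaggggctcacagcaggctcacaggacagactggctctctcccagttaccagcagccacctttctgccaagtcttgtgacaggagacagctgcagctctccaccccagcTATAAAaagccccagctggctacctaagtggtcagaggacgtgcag
Cox7a1, chr7:30183921-30184220, plus strand: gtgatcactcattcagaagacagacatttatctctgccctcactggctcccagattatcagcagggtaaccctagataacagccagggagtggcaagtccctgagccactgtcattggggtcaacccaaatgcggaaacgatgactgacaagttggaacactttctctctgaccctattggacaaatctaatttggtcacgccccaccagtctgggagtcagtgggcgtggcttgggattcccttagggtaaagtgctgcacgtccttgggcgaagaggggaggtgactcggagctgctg
Cox8a, chr19:7217567-7217866, minus strand: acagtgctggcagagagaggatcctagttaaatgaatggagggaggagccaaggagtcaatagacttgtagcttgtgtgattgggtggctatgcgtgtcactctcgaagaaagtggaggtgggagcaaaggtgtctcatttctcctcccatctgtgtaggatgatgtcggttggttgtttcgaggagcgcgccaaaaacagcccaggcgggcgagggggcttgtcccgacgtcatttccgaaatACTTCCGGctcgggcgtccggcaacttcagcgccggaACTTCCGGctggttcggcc
Cox6a1, chr5:115348909-115349208, minus strand: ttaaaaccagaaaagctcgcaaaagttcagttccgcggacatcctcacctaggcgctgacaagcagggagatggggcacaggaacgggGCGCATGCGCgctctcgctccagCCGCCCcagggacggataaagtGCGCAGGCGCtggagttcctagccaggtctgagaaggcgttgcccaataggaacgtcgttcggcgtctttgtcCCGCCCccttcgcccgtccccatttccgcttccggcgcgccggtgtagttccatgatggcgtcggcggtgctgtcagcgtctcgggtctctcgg
Cox8b held a TATA match, which begins 4 bases after the start, Cox7a1 none of the 5 motifs, Cox8a 2 ETS matches and Cox6a1 2 NRF1 matches, 162 and 117 bases before the start, and 2 SP1 matches. Matches of different motifs did not overlap in these promoters. NRF1, nuclear respiratory factor 1, is known as a regulator of nuclear respiratory genes. Over the 80 nuclear members with a promoter in the RefSeq table, the NRF1 letters were present in 26.2%, against 5.19% of 27025 genes, and YY1 in 10.0% against 1.64%. The shares were 6.25% and 4.31% for ETS, 48.8% and 38.2% for SP1, and 11.2% and 15.7% for TATA. Each motif was counted on its own. A match describes the letters and not a bound site.

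Cox8b and Cox7a1 moved with 2 markers of brown fat, Ucp1 and Cidea. Ucp1, the uncoupling protein of brown fat, had 256, 197 and 199 CPM in control and 121, 86.3 and 114 in AAA mice (log2 fold change -1.06 ± 0.194, SE, edgeR adjusted p = 0.000215). Cidea, a lipid droplet protein of brown fat, had 173, 106 and 84.4 against 40.0, 48.2 and 62.3 CPM (log2 fold change -1.36 ± 0.269, SE, edgeR adjusted p = 0.000620). All 5 genes of the brown fat list were detected, but only 2, Ucp1 and Cidea, passed the filter on low counts and were tested. Together the 5 genes took 0.0348% to 0.0523% of UMIs in control and 0.0183% to 0.0231% in AAA mice. Ucp1 and Cidea made up most of this sum in every mouse. The rest of the list, Elovl3, Dio2 and Cpt1b, was not compared by itself. In the gaps Ucp1 stood at 172, Cox8b at 71.5 and Cox7a1 at 68.9 CPM, above every AAA mouse. For Cox7a1 the gaps also lay above control 3, which had 54.6 CPM. The first section of control 1 was highest of all 20 for each of these genes, with 349 CPM for Ucp1, 418 for Cox8b and 265 for Cox7a1. The part of brown fat in the results for both isoforms was not tested.

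The sections were then divided into hexagons with 12 μm sides, and 4950 with 75 or more genes, mt and Gm genes not counted, were kept. These held a minor part of the RNA behind the shares of whole sections. In control mice 1, 2 and 3 it was 38748 of 179620, 13713 of 141927 and 10171 of 201349 exonic UMIs. In AAA mice 1, 2 and 3 it was 369143 of 1075379, 122768 of 498351 and 105574 of 722484. Kept hexagons were assigned to the marker list with the most UMIs where it had 3 or more and led every other list, and 2974 were assigned. Of these, 538 led by a single UMI and 834 had 3 marker UMIs, so the groups are ranges of marker content and not cell types. A hexagon can hold several cells. Control mice had few hexagons of most groups: for collagen genes 8, 4 and 1, for macrophage genes 1, 0 and 0, and for adipocyte genes 52, 4 and 1.

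In hexagons led by contractile genes the mitochondrial share did not separate the conditions. It was 7.25%, 7.27% and 5.41% in control mice (156, 64 and 66 hexagons) and 5.66%, 6.06% and 5.70% in AAA mice (451, 126 and 223 hexagons). Control 3 was the lowest of the 6 mice, and the difference of -0.833 percentage points had p = 0.4 (exact permutation test). This rested on single mice: it was -1.45 without control 3, where the mice did not overlap, -0.530 without control 1 and -0.520 without control 2. The nuclear share was 1.99%, 2.01% and 2.05% against 2.08%, 2.04% and 1.97%, a difference of 0.0158 percentage points (exact permutation test, p = 0.8). In edgeR on these hexagons, 22 members were among the 245 genes tested and 0 were called, against 2.45% of all. At an unadjusted p under 0.05 there were 3 of the 22 members, mt-Co1, mt-Nd1 and mt-Atp6. Their log2 fold changes were -0.56, -0.60 and -0.53, and the count over all 245 genes at that p is not reported here. DESeq2 called 0. With the pair as a block edgeR called 1 member.

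In kept hexagons that no list led, the mitochondrial share was 10.1%, 8.42% and 7.83% in control and 5.79%, 6.31% and 5.75% in AAA mice. These did not overlap (difference -2.84 percentage points, exact permutation test, p = 0.1, adjusted p = 0.2 over 18 class comparisons). Over all kept hexagons it was 9.97%, 7.71% and 6.21% against 5.58%, 6.17% and 5.70%, so that control 3 lay just above AAA 2. Without control 1 the difference over kept hexagons was -1.15 in place of -2.15 percentage points.

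Adipocyte gene hexagons had the highest shares of the marker groups. In control 1 the mitochondrial genes took 15.7% of their UMIs (95% exact binomial interval 15.0% to 16.4%, counting error only) and the nuclear members 6.30% (5.84% to 6.80%). In AAA mice the mitochondrial share of these hexagons was 6.10%, 7.11% and 6.46% and the nuclear share 3.21%, 2.75% and 4.36%. Control 2 and control 3, with 4 and 1 such hexagons, had 11.9% and 26.1% for the mitochondrial and 3.03% and 5.23% for the nuclear members. The brown fat genes were found in the same hexagons of control 1, with Ucp1 at 1489, Cox8b at 1886 and Cox7a1 at 1489 CPM from 15, 19 and 15 UMIs. Control 2 and control 3 had 0 UMIs of all 3 genes in their few hexagons, too few to show their absence. In AAA 1, 2 and 3 these hexagons held Ucp1 at 45.2, 148 and 553 CPM from 2, 2 and 4 UMIs. Cox8b stood there at 181, 148 and 1244 CPM from 8, 2 and 9 UMIs, and Cox7a1 had 1, 1 and 0 UMIs. AAA 3 was thus the highest AAA mouse for Ucp1 and Cox8b, and control 1 lay above all AAA mice for the 3 genes.

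Within a mouse, adipocyte gene hexagons exceeded contractile gene hexagons in 6 of 6 mice for both sets, by a mean of 6.01 percentage points for the mitochondrial and 2.12 for the nuclear share (exact sign-flip permutation test, p = 0.0312, the smallest that 6 mice allow, adjusted p = 0.141). Control 2 and control 3 entered with 4 and 1 adipocyte gene hexagons. In the 3 AAA mice alone the differences were 0.749 and 1.41 points. In the mitochondrial share, macrophage gene hexagons were lower than contractile gene hexagons in 4 of 4 mice that held both. For this p was 0.125, the smallest for 4 mice (exact sign-flip permutation test). Of the 4, control 1 held 1 macrophage gene hexagon, with 90 UMIs and 1 mitochondrial UMI. The AAA mice had 4.82%, 5.19% and 5.46%, a mean difference of -0.655 points (exact sign-flip permutation test, p = 0.25, the smallest for 3 mice). Collagen gene hexagons of AAA mice had 5.23%, 5.78% and 5.49%, below the contractile value in each of the 3 mice, with a mean difference of -0.308 points. Control 1 and control 2 went the other way, with 7.61% and 8.27% against 7.25% and 7.27%, from 8 and 4 collagen gene hexagons. Over all 6 mice the mean difference was -0.301 points (exact sign-flip permutation test, p = 0.625, adjusted p = 0.703).

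**Figure D4:**
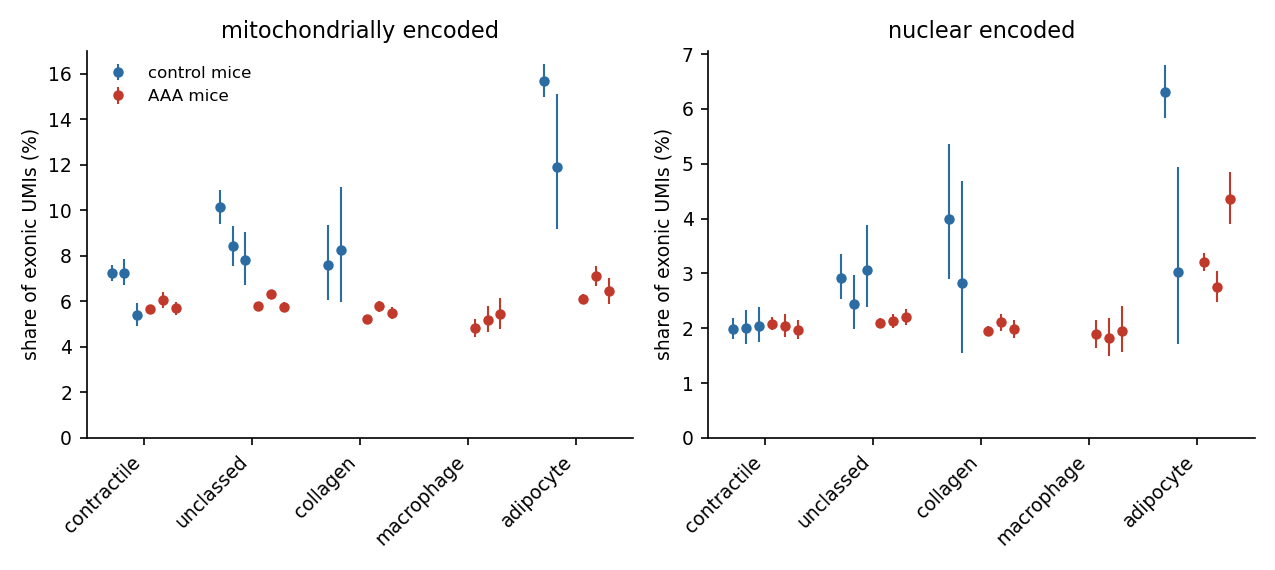
Share of exonic UMIs (y axis, percent) taken by the mitochondrially encoded (left) and nuclear encoded (right) members in kept hexagons, by the marker list that leads them (x axis). Points are mice with 4 or more such hexagons, and bars are 95% exact binomial intervals, which cover counting error only. Contractile gene hexagons overlap between conditions, and adipocyte gene hexagons of control 1 lie highest.

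The difference between conditions also varied with how much RNA surrounded a place. Hexagons were binned by the mean UMIs of their 6 neighbours, mt and Gm genes left out, so that a hexagon's own counts were not used. With 10 to 20 UMIs around, the mitochondrial share was 13.5%, 11.9% and 13.2% in control and 8.05%, 8.06% and 6.84% in AAA mice, while gaps of the same density had 8.13%. With 30 to 50 UMIs around it was 9.15%, 9.00% and 8.35% against 6.86%, 7.54% and 6.38%. With 80 or more it was 11.0%, 6.85% and 6.29% against 5.68%, 6.30% and 5.95%, and the conditions overlapped. In control mice the share was thus highest with 5 to 20 UMIs around and lower in the RNA-rich places, less so in control 1, and in AAA mice it stayed between 5.68% and 8.51% throughout.

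The mice stood apart in the mitochondrial share in the 5 bins below 50 UMIs (exact permutation test, p = 0.1 each, adjusted p = 0.175 over 14 tests) and overlapped in the 2 bins above. The nuclear share stood apart in 3 of those 5 bins, with differences of -0.251 percentage points at 0 to 5 UMIs, -0.234 at 5 to 10 and -0.235 at 20 to 30 (exact permutation test, p = 0.1 each, adjusted p = 0.175). It was 2.26% ± 0.150 in control and 2.05% ± 0.0614 in AAA mice at 10 to 20 UMIs, and 2.22% ± 0.0913 and 2.16% ± 0.0564 at 30 to 50 (SD, n = 3 and 3), overlapping in both, and it also overlapped in the 2 bins above 50. With 20 or more UMIs around, edgeR called 9 of 11 tested mitochondrial members lower, with a median log2 fold change of -0.49. Lower in that fit were 6 of 80 nuclear members and 89 of all 4722 genes tested. With fewer than 20 around, edgeR called 10 of 11 mitochondrial members lower, with a median of -0.75. Lower in this second fit were 0 of 64 nuclear members and 16 of all 1842 genes tested. Free RNA, sparse tissue and wall cannot be told apart in the sparse bins.

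**Figure D5:**
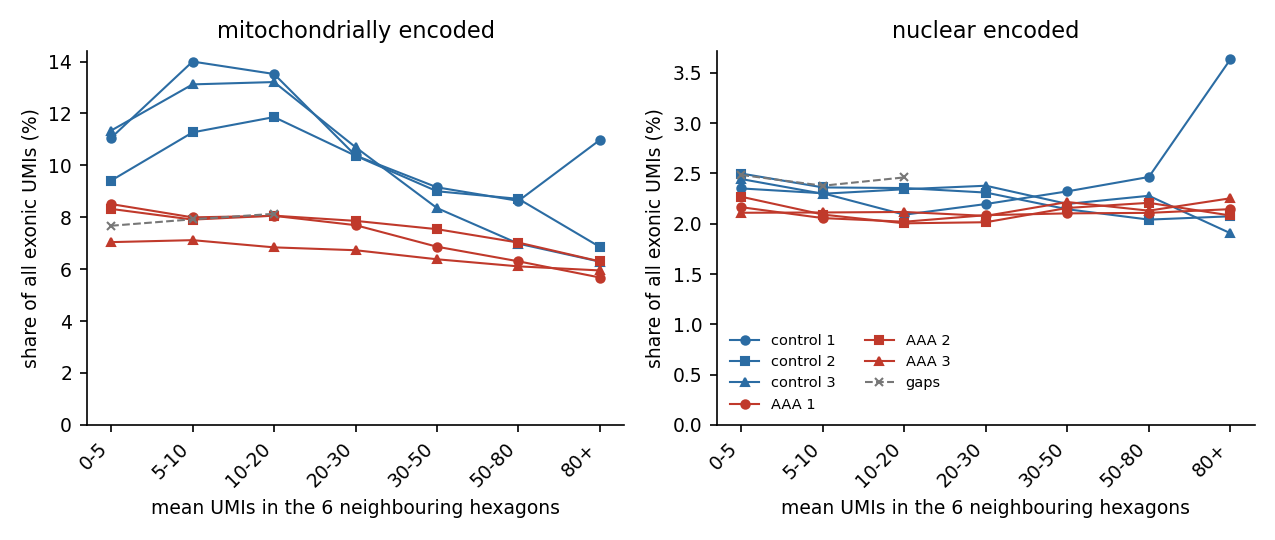
Share of all exonic UMIs (y axis, percent) taken by the mitochondrially encoded (left) and nuclear encoded (right) members, by the mean UMIs in the 6 neighbouring hexagons (x axis). Lines are mice and, dashed, the gaps where 1000 or more UMIs were found. The control lines start at 9.41% to 11.3%, peak at 5 to 20 UMIs and approach the AAA lines at the dense end, except for control 1.

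Few genes of other pathways passed the test. Idh3a, the catalytic subunit of the NAD-linked isocitrate dehydrogenase of the tricarboxylic acid cycle, was lower in AAA (log2 fold change -0.69 ± 0.201, SE, edgeR adjusted p = 0.0426). Of the glycolysis list 11 of 16 were tested and 1 was lower, Pfkp, a phosphofructokinase (-0.85 ± 0.220, SE, edgeR adjusted p = 0.0149), with a median of -0.18.

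No gene was called in edgeR among 12 tested genes of cytochrome c and the carriers (median log2 fold change -0.24), 9 of complex IV assembly (-0.16), 7 of mitochondrial DNA upkeep and transcription (-0.14) and 21 of import and chaperones (-0.19), against a median of -0.02 over all genes. At an unadjusted p under 0.05 these lists had 2, 0, 1 and 4 genes, against 709 of all 6181 genes tested. DESeq2 called 0 in each list. The ribosomal and transfer RNAs of mitochondrial DNA (24 genes) were not analysed here.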

How the data were processed

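Seq-Scope reads were aligned with STAR and counted with STARsolo 2.7.5c on mm10, per the labels; the annotation release is not given in the sources used here. The authors deposited raw UMI counts per gene and barcode, not normalized, in 1 matrix for all sections, with exonic counts (used here) and counts over whole genes. Both aorta libraries are pooled there, and the barcode seed library was not used. The labels do not separate conditions, so 20 sections were placed on lane 2. For this 38 edges of the printed array map were fitted to UMI density (26.6 position units per μm, residual SD 64.8 μm). The share of UMI density in the outlines exceeded their share of the array length by 40.6 percentage points. With the order turned around the excess was 15.4 points. Of 9837644 barcodes, 4084186 lay in sections and 763 had no position.

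UMIs were summed per mouse. Shares were compared by exact permutation over mice. For single genes edgeR 4.0.16 was used with its TMM scaling, filterByExpr and quasi-likelihood fit, an adjusted p of 0.05 as threshold and DESeq2 1.42.0 as the alternative, in R 4.3.3; the step was tested on simulated data. Gene models are GENCODE vM21. Mice were separate animals per the study's methods.

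Members, lists and tests were chosen with earlier results of these data known. Named genes were all mitochondrial members, the 20 nuclear members of highest count, members past the threshold, isoform pairs and called genes of other pathway lists. Pair numbers share an embedding block; deviations of same-numbered mice correlated at 0.0331, 0.00374 and 0.0496. The cell type lists with no statement in the report moved as follows: hepatocyte 1.85% to 2.30% of UMIs in control and 1.90% to 2.05% in AAA mice, adipocyte 0.768% to 0.936% and 0.743% to 0.938%, collagen fibroblast 0.877% to 0.956% and 1.12% to 1.50%, red blood cell 0.149% to 0.471% and 0.112% to 0.186%, and endothelium, lymphocyte, neutrophil, striated muscle, adrenal cortex and nerve lists between 0.00111% and 0.103%. The count over the tricarboxylic acid cycle list is not reported here.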

Additional observations from a re-analysis of the deposited data

Results flagged for a closer look

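In the first section of control 1 the nuclear members took 2.92% of UMIs, while the other 9 control sections lay between 2.13% and 2.38%. Its gap to the nearest section was 0.689 of the range of the 10 control sections, above Dixon's critical value of 0.466, which chance passes in about 1 of 20 groups. The mitochondrial share of that section, 12.6%, was the highest of all but was not set apart in this way. Ucp1 stood at 349 CPM there, and its part in the value was not tested.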

How the results depend on the processing

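In percentage points, AAA minus control, the mitochondrial share differed by -4.82 to -1.62 over all settings tried (-4.00 to -3.57 with a mouse left out). The nuclear share differed by -0.425 to -0.0595 (-0.283 to -0.163 with a mouse left out). The -1.62 and -0.0595 are from counts over whole genes, where the total is larger. The mitochondrial calls numbered 10 or 11 with a mouse left out and 8 without the low-count filter. Without the filter mt-Co3 and mt-Nd3 did not pass (edgeR adjusted p = 0.0697 and 0.0896). Over hexagons with 75 or more genes the calls were 3 of 10 tested. There the log2 fold changes of mt-Co2, mt-Co3 and mt-Nd3 were also closer to 0 (-0.38, -0.27 and -0.27). The log2 ratio of mitochondrial to nuclear UMIs differed there by -0.20. Nuclear calls numbered 2 with counts over whole genes, 2 over such hexagons, 3 with DESeq2, 2 without the low-count filter, 0 in sparse surroundings, 3 without adipocyte gene hexagons, 2 without the first section of control 1, and 1 to 6 with a mouse left out. Of all genes, 49 were lower with counts over whole genes, 50 lower and 27 higher in hexagons with 75 or more genes, 114 higher with library size scaling, 50 lower and 43 higher with DESeq2, 52 lower and 150 higher without the filter, 16 lower and 8 higher in sparse surroundings, and 45 to 96 lower and 44 to 94 higher with a mouse left out. The cause was not tested. The median log2 fold change over the whole gene table was -0.12 with DESeq2 and 0.27 without the filter. No alternative reversed a member called in the sections.

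In contractile gene hexagons the genes called were 0 with DESeq2, 0 without the filter and 3 to 11 with a mouse left out, and members called were 1 with the replicate block. The block gave 11 mitochondrial and 6 nuclear calls over the sections. Paired differences of both set shares had p = 0.25 (exact sign-flip permutation test, the smallest for 3 pairs). Same-numbered mice were embedded together, and the low correlations of their deviations cannot show with 3 pairs that the pairing has no effect.

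Values near 0 that were not called changed sign. The nuclear complex V share was 0.00239 points higher in AAA with counts over whole genes and 0.0347 higher in hexagons with 75 or more genes. The nuclear share in contractile gene hexagons was -0.0445 points with 50 or more genes and -0.00148 without marker genes in the total, and -0.00862 to 0.0455 with a mouse left out. Macrophage minus contractile gene hexagons differed by 0.512 points in the nuclear share with 50 or more genes and by -0.145 to 0.00745 with a mouse left out, and collagen minus contractile by -0.0173 in AAA mice. With a mouse left out, the mitochondrial share of collagen gene hexagons ran from -2.44 to 0.111 points between conditions, and from -0.561 to 0.0863 points against contractile gene hexagons. Dense and sparse surroundings, hexagons without adipocyte genes, the section left out and the AAA mice alone were added after values had been seen. Depth limits the control mice, whose kept hexagons are few.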
